A study of Mus musculus with 6 samples.

Results

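The genes described here are 9 of the 19505 genes named on the array: the ligands Lif, Il11, Il6 and Clcf1, the receptor chains Lifr, Il6st and Osmr, the transcription factor Stat3 and the feedback inhibitor Socs3. They were chosen by symbol as the core of LIF and interleukin 6 family signalling, around the higher level of Lif in AC9 cells. The comparison of AC9 with VECTOR therefore chose the members, and their differences in it are given below as a description, with no p-value for any member. All 9 were measured, each by 1 probe set.

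The samples were cultured 393P cells, a lung adenocarcinoma line of the mouse whose name some labels spell 9393P, in 2 groups of 3 arrays each. The AC9 group carried a stable transfection for overexpression of AC9. RefSeq has this name as a synonym for Adcy9, which encodes adenylyl cyclase 9, an enzyme that makes cAMP. The VECTOR group carried the empty vector. Cells of both groups were kept in serum-containing RPMI, received their DNA with jetPRIME and were selected with puromycin or G418. The labels do not say which drug each group received, whether a group was 1 clone or a pool, or whether its samples were separate cultures. If the drugs differed, drug and AC9 cannot be told apart, and the p-values below rest on the spread among the arrays of a group, which could be technical alone. Total RNA went onto Affymetrix Clariom S arrays, and each value is a deposited log2 intensity made with RMA, so a difference of 1 is a doubling.

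Cytokines of this family share 1 signalling receptor chain, gp130, the product of Il6st. LIF binds LIFR, which pairs with gp130; IL-6 and IL-11 reach gp130 through receptors of their own, oncostatin M through OSMR, and CLCF1 through a complex of CNTFR, LIFR and gp130. JAK kinases on these chains phosphorylate STAT3, which enters the nucleus, and SOCS3, a product of STAT3 target transcription, binds gp130 and JAK and shuts the signal off. In epithelial cells and tumours the pathway is known for acute phase gene expression and cell survival, and in mouse embryonic stem cells LIF maintains self-renewal.

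Adcy9, the gene of the label, read 6.78, 6.60 and 6.82 in AC9 cells, against 6.12, 6.09 and 6.15 in VECTOR cells, a difference of 0.61 (SE 0.10, limma adjusted p = 0.00264). A bound for dim signals was set at the 90th percentile of the negative control probe sets, 6.06 on average over the arrays, and a group is called under the bound where all its arrays are. All 6 epithelial markers (Epcam, Cdh1, Krt8, Krt18, Krt19, Cldn4) lay above it on all 6 arrays, with means over the list of 10.8 on each AC9 array, against 10.7 to 10.8 on VECTOR arrays. Of these, 3 passed the limma threshold, a share of 50% beside 17.6% of all genes. Epcam (log2 difference 0.44, limma adjusted p = 0.0293) and Cldn4 (0.50, adjusted p = 0.0189) were higher in AC9, and Krt19 (-0.47, adjusted p = 0.00873) was lower. The 6 measured leukocyte markers (Ptprc, Itgam, Adgre1, Csf1r, Cd3e, Tyrobp) and the 6 endothelial markers, Pecam1 and Cdh5 among them, lay under it on all 6. Of 5 measured fibroblast markers, Dcn, Lum and Pdgfrb lay under it on all 6 arrays and Col1a1 above it on all 6. The mean level over the fibroblast list was 5.36 to 5.39 on AC9 arrays, against 5.27 to 5.43 on VECTOR arrays. The means over the dim leukocyte list were 4.80 to 4.87 on AC9 arrays, against 4.62 to 4.77 on VECTOR arrays, and those over the endothelial list 4.32 to 4.40, against 4.16 to 4.32. Among the leukocyte, endothelial and fibroblast lists 0 genes passed the threshold in limma, and 1, 1 and 0 had an unadjusted p under 0.05. Over the whole array 5904 of 19505 genes had such an unadjusted p. The part of all these marker levels in the results was not tested.

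Lif was the member that was higher in AC9 cells. It read 9.57, 9.79 and 9.76 on the AC9 arrays, against 8.33, 8.18 and 8.44 on the VECTOR arrays. Every AC9 array lay above every VECTOR array, and all were above the bound. The group means were 9.71 ± 0.12 in AC9 and 8.32 ± 0.13 in VECTOR (SD, n = 3 each), a difference of 1.39 (SE 0.11), or 2.62-fold. By size of rise Lif ranked 56 of 19505 genes. With each array left out in turn the difference was 1.32 to 1.46. In bulk samples a higher level per cell and more cells with the transcript cannot be told apart, here and for every gene below.

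The other 3 ligands did not share this. Clcf1, a ligand of the CNTFR complex, read 9.13, 8.91 and 9.15 in AC9 cells, against 9.60, 9.79 and 9.64 in VECTOR cells. The groups did not overlap and AC9 was the lower, by a log2 difference of -0.62 (SE 0.11), or 1.53-fold. Il6 and Il11 gave only dim signals in both groups. The Il6 probe set read 3.03 to 3.19 in AC9 cells and 3.13 to 3.69 in VECTOR cells, and that of Il11 read 4.90 to 5.29 in AC9 and 4.75 to 5.29 in VECTOR. All of these lie under the bound and overlap between the groups, so no size of difference is given for either.

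**Figure D1:**
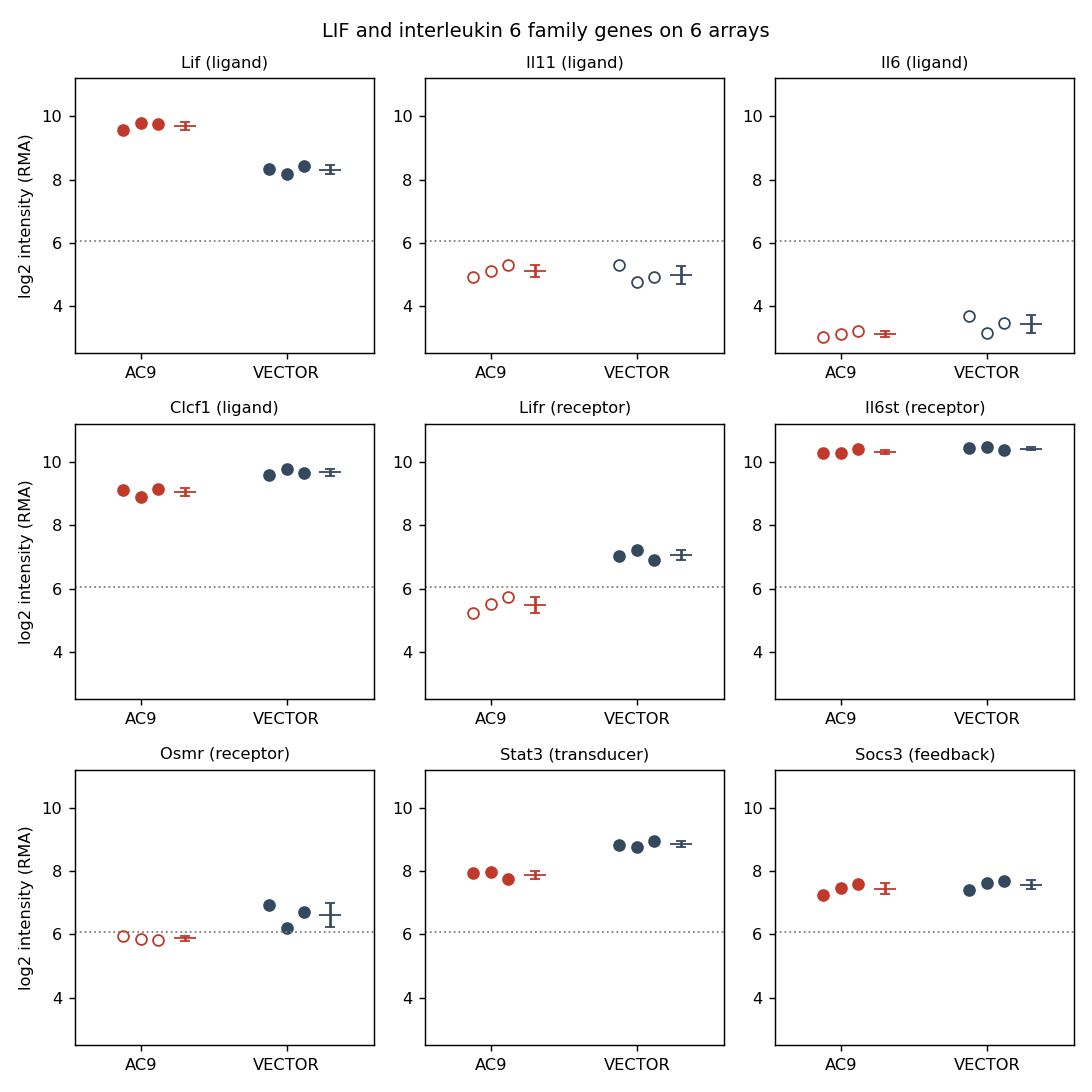
Log2 intensity of the 9 members, 1 panel per gene, with AC9 on the left of each panel and VECTOR on the right. Points are single arrays, open where they lie under that array's bound; the bar beside them is the mean ± SD of 3 arrays, and the dotted line is the mean bound of 6.06. Lif is higher in AC9 without overlap; Clcf1, Lifr, Osmr and Stat3 are lower without overlap; the groups overlap for Il11, Il6, Il6st and Socs3.

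The 250 bases before the annotated starts of Lif, Il11, Il6 and Socs3 are shown because every motif match among the members lay there: 3 ligand genes shared an AP-1 motif, and Socs3 held a STAT motif. They are RefSeq sequences of the build GRCm38.p6, 5′ to 3′ on the strand of the gene, with motif matches in capitals.
Lif, chr11:4257318-4257567, plus strand: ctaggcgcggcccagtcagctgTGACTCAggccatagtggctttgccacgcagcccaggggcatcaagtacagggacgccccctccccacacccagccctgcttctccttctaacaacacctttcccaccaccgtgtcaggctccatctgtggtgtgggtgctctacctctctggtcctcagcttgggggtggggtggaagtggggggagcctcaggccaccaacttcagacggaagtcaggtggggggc
Il11, chr7:4778142-4778391, minus strand: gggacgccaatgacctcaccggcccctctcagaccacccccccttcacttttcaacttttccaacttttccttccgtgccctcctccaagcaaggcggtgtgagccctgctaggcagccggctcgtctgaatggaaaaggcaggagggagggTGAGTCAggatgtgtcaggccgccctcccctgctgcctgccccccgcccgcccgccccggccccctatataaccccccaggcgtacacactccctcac
Il6, chr5:30012864-30013113, plus strand: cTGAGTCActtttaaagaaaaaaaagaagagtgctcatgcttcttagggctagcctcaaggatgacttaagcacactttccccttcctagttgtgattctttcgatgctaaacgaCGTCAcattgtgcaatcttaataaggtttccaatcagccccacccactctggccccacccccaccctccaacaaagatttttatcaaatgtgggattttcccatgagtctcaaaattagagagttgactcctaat
Socs3, chr11:117969367-117969616, minus strand: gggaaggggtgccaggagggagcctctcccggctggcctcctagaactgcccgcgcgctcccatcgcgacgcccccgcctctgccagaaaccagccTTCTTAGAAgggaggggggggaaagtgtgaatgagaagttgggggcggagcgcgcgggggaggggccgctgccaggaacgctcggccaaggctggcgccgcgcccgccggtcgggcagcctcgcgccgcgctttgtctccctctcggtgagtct

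The motifs searched, on both strands, were TGANTCA (AP-1), TTCNNNGAA (STAT), TGACGTCA (the cAMP response element, CRE) and TGACG (the short core of that element, which the full element also contains). Of the 9 members, 8 had a promoter sequence, 10 starts in all, and Clcf1 had none in the table. AP-1 matches stood at -228 to -222 in Lif, -98 to -92 at the second listed start of Il11 and -249 to -243 in Il6, counted back from the start. Among all 32851 promoters of the same length, 6.75% hold that motif. The STAT match of Socs3 stood at -154 to -146, and 7.02% of all promoters hold one. Il6 held a short CRE core at -135 to -131, a motif in 17.8% of all promoters, and 0 of the 10 held a full CRE, which 1.55% of all promoters hold. A match describes the letters and is no evidence that a factor binds there.

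Among the receptor chains, Lifr and Osmr were lower in AC9 cells, while the shared chain Il6st differed little. Lifr, the chain that binds LIF, read 5.21, 5.50 and 5.73 in AC9 cells, against 7.01, 7.22 and 6.91 in VECTOR cells. The 3 AC9 arrays lay under the bound and the 3 VECTOR arrays above it. The measured means were 5.48 ± 0.26 in AC9 and 7.05 ± 0.16 in VECTOR (SD, n = 3 each); set against the bound of each AC9 array, Lifr was at least 1.94-fold lower. The measured log2 difference, -1.56 (SE 0.14), ranked 38 of 19505 genes by size of fall.

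Osmr, the oncostatin M receptor chain, read 5.95, 5.87 and 5.81 in AC9 cells, against 6.92, 6.20 and 6.71 in VECTOR cells. The groups did not overlap, with AC9 under the bound on all 3 arrays, and Osmr was at least 1.43-fold lower. VECTOR replicate 2 lay nearest to the AC9 arrays, and without it the measured difference was -0.94, against -0.74 (SE 0.17) with all arrays. Without VECTOR replicate 1, the highest array, it was -0.58. Il6st read 10.28, 10.28 and 10.41 in AC9 cells, against 10.43, 10.47 and 10.39 in VECTOR cells. The groups overlapped, and the difference was -0.11 (SE 0.09).

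Stat3, the transcription factor downstream of these receptors, was lower in AC9 cells. It read 7.95, 7.97 and 7.75 in AC9, against 8.83, 8.76 and 8.97 in VECTOR. No arrays of the groups overlapped; the means were 7.89 ± 0.13 in AC9 and 8.86 ± 0.10 in VECTOR (SD, n = 3 each), a log2 difference of -0.97 (SE 0.10), or 1.95-fold. Leaving out each array gave -1.01 to -0.89. Socs3, which inhibits signalling through gp130, read 7.25, 7.48 and 7.59 in AC9 cells, against 7.41, 7.62 and 7.70 in VECTOR cells. Those groups overlapped, with a difference of -0.14 (SE 0.12). That value was -0.042 without AC9 replicate 1 and -0.22 without VECTOR replicate 1.

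Across the 9 members, 5 passed an adjusted p of 0.05 in the limma fit over all genes, 1 higher and 4 lower in AC9, where 17.6% of all genes passed. The groups did not overlap for the same 5 genes, against 35.1% of all genes (17.3% higher and 17.7% lower in AC9). Since this contrast chose the members, nothing is read from these counts. The median difference over all genes was 0.02. The middle value of the members is that of Il6, under the bound in both groups, so no median is given for them.

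**Figure D2:**
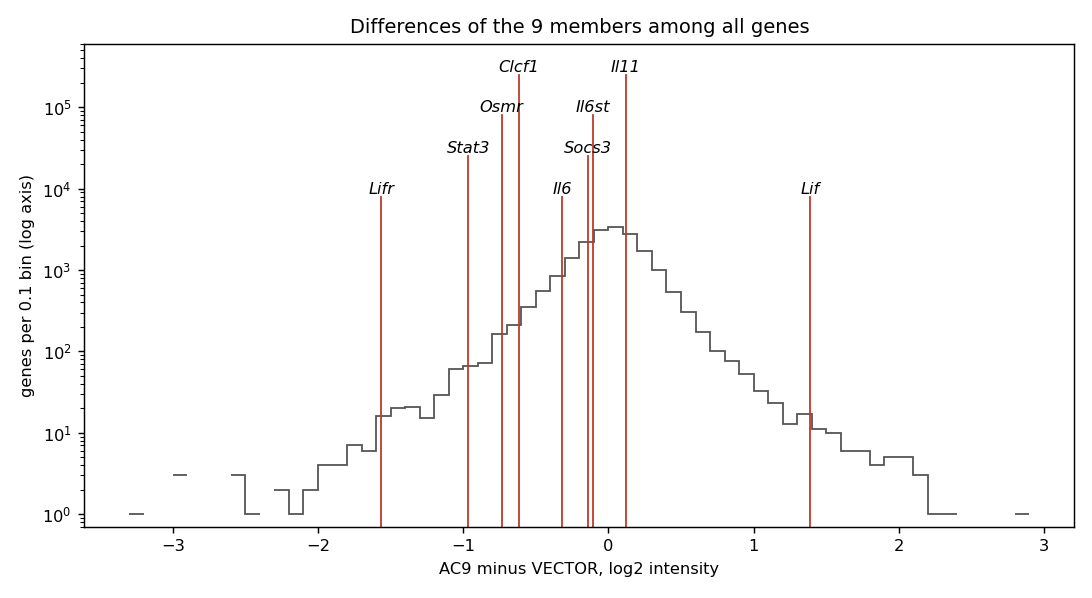
Differences of the 9 members (red lines, AC9 minus VECTOR on the log2 scale) over the number of genes in each bin of 0.1, on a log axis. The heights of the red lines only separate the names. Lif at 1.39 and Lifr at -1.56 lie in opposite tails; Il11, Il6st and Socs3 lie near the centre. For Il11, Il6, Lifr and Osmr the position is that of the measured difference, although 1 or both groups were under the bound.

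Probe sets made for estimating background, with no transcript as target, also differed between the groups. Of their 23 classes by GC content, 19 were lower in AC9 without overlap, the furthest by a log2 difference of -0.50, in class 25 (6.80 ± 0.17 in AC9 and 7.30 ± 0.24 in VECTOR, SD, n = 3 each). The differences of Clcf1, Stat3, Osmr and Lifr ran the same way and were larger in size than that, and the difference of Lif ran the other way. The GC content of the members' own probes is not used here, and the part of this shift in their differences was not tested.

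The remaining components of the pathway were counted in 4 lists that hold none of the 9 members, with the same fit. Among 6 measured further ligands, 5 lay under the bound in both groups. Ctf2, known in mouse as neuropoietin, was the 1 that passed (difference 0.44, SE 0.11, adjusted p = 0.0268), with 6.01, 5.73 and 5.97 in AC9 cells, against 5.39, 5.61 and 5.39 in VECTOR cells, all under the bound, so no fold is given. This share of the list, 16.7%, lies near the 17.6% of all genes called. Ctf2 lost the call without AC9 replicate 1 (adjusted p = 0.101), AC9 replicate 3 (0.0884), VECTOR replicate 1 (0.0851) or VECTOR replicate 3 (0.0753). Cardiotrophin 1 (Ctf1), the 1 further ligand above the bound, was measured at 8.05, 7.81 and 8.05 in AC9 cells, against 8.11, 7.97 and 8.07 in VECTOR cells, and the groups overlapped. Osm, the oncostatin M gene that neighbours Lif in the reference gene order, was measured at 3.52, 3.89 and 3.76 in AC9 cells, against 3.78, 3.84 and 3.66 in VECTOR cells, all under the bound.

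Of 4 further receptor chains, 0 passed the limma threshold, beside 17.6% of all genes. An unadjusted p under 0.05 was held by 0 of them, beside 5904 of 19505 genes. Il6ra, the IL-6 binding chain, read 6.71, 6.68 and 6.57 in AC9 against 6.53, 6.60 and 6.33 in VECTOR, a difference of 0.17 (SE 0.10, adjusted p = 0.333). Il27ra, a partner of gp130 for IL-27, lay under the bound in both groups (adjusted p = 0.369). Cntfr, which binds CLCF1, lay above the bound on every array, at 6.48 to 6.90 in AC9 and 6.21 to 7.08 in VECTOR.

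In the list of JAK kinases, other STATs and the SHP2 adaptor arm, 2 of 12 measured genes fell and 0 rose, beside 9.29% of all genes that fell and 8.26% that rose. Stat5a, which the reference places next to Stat3, read 7.69, 7.91 and 7.59 in AC9 against 8.11, 8.36 and 8.53 in VECTOR. It was lower by 1.52-fold (log2 difference -0.60, SE 0.13, adjusted p = 0.0128), but not past the threshold without AC9 replicate 3 (adjusted p = 0.0502). Tyk2, a JAK family kinase, fell by 0.41 on the log2 scale (SE 0.10, adjusted p = 0.0180), with 7.79, 7.76 and 7.74 in AC9 against 8.28, 8.20 and 8.04 in VECTOR. Its call was lost without AC9 replicate 1, 2 or 3 (adjusted p = 0.0549, 0.0538 and 0.0613) and without VECTOR replicate 1 or 2 (0.0610 and 0.0527). Jak1, the main kinase of gp130, read 7.95, 7.93 and 7.86 in AC9 against 8.11, 8.24 and 8.22 in VECTOR (difference -0.28, adjusted p = 0.0653), and Jak2 had a difference of 0.21 (adjusted p = 0.168); neither passed. The median difference of the list was -0.19, beside 0.02 over all genes.

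Of 14 negative regulators other than Socs3, 2 rose and 1 fell, a share called of 21.4%, beside 17.6% of all genes. Ptpn6, the gene of the phosphatase SHP-1, read 7.41, 7.55 and 7.39 in AC9 cells, against 8.35, 8.38 and 8.23 in VECTOR cells. The groups were far apart relative to their spread, and Ptpn6 was 1.82-fold lower (log2 difference -0.87, SE 0.09, adjusted p = 0.000385). Socs2, a SOCS protein best known for limiting growth hormone signalling, read 10.33, 10.39 and 10.40 in AC9 against 9.57, 9.71 and 9.93 in VECTOR, and rose 1.56-fold (log2 difference 0.64, SE 0.11, adjusted p = 0.00418). Ptpn2, a phosphatase of JAK and STAT proteins, rose 1.35-fold (adjusted p = 0.0225), a call lost without any of AC9 replicates 1, 2 and 3 (adjusted p = 0.0661, 0.0633 and 0.0660) and without VECTOR replicate 1 or 2 (0.0718 and 0.0609). Socs1 read 6.22, 6.27 and 6.45 in AC9 against 6.37, 6.46 and 6.14 in VECTOR, with overlap. Without VECTOR replicate 3, 2 genes of this list fell in place of 1.

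**Figure D3:**
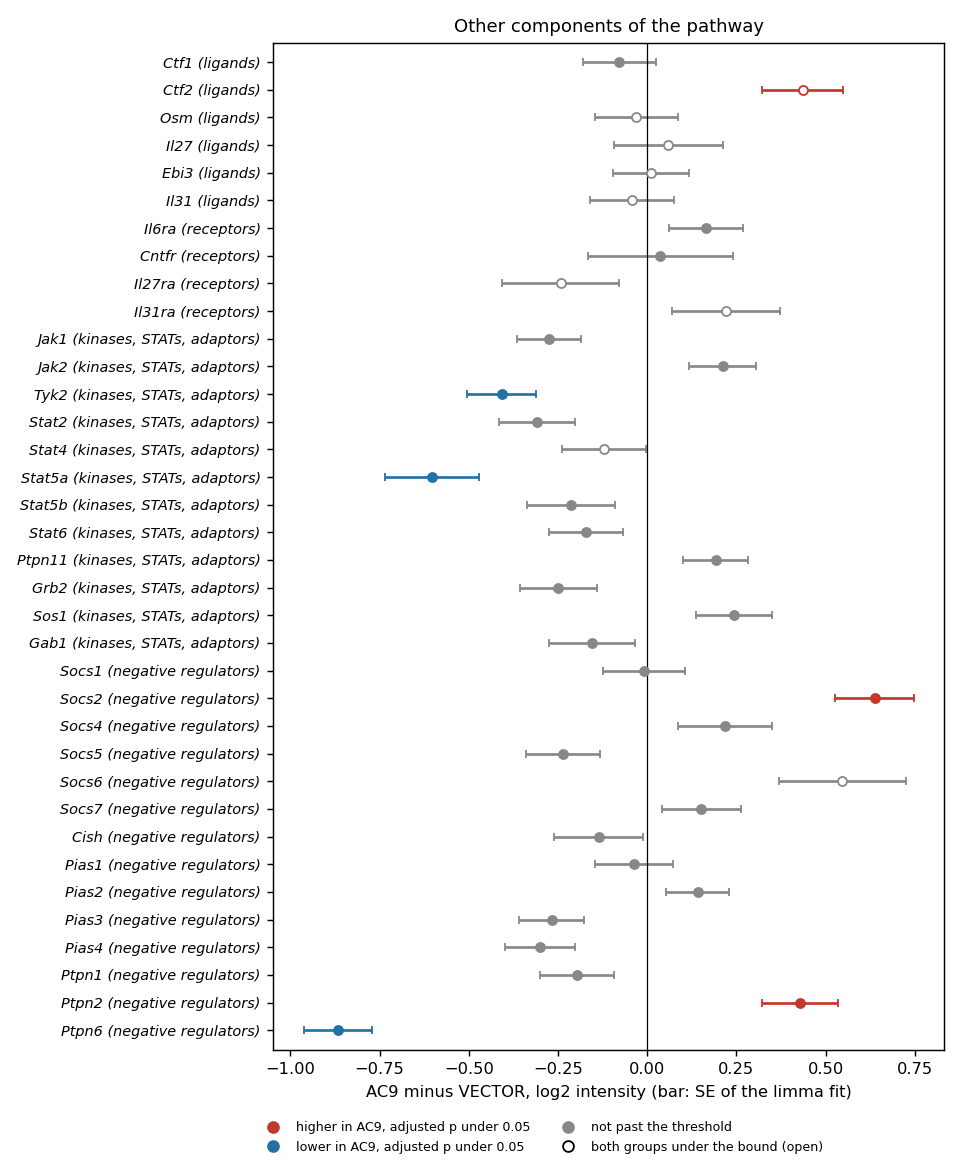
AC9 minus VECTOR differences of the 36 measured components of the pathway other than the 9 members, on the log2 scale; bars are the SE of the limma fit. Red points are past an adjusted p of 0.05 and higher in AC9 (Ctf2, Socs2, Ptpn2), blue points past it and lower (Tyk2, Stat5a, Ptpn6), and open points lay under the bound in both groups.

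Genes widely described as induced through STAT3 moved in both directions. Of 33 measured, 7 rose and 5 fell, and 7 lay under the bound in both groups, among them the acute phase genes Hp, Fgg, Fgb and Saa1. The share past the threshold was 36.4%, beside 17.6% of all genes, and the median difference was 0.14, beside 0.02; nothing particular to the list is read from this. Several of these genes also answer to other pathways. Among all genes, 8198 of 19505 lay under the bound in both groups, against 7 of the 33 here. The part of signal level in the share called was not tested.

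Cebpd, the gene of C/EBP delta, a transcription factor of the acute phase response, changed furthest in this list. It read 8.05, 8.11 and 7.99 in AC9 cells, against 9.68, 9.84 and 9.75 in VECTOR cells. Its groups did not overlap, and it was 3.26-fold lower in AC9 (log2 difference -1.70, SE 0.09, adjusted p = 1.2e-05). The other 4 that fell, named after their values were seen, were Lbp, which encodes the lipopolysaccharide binding protein of the acute phase (-0.68), the AP-1 subunit gene Fosl2 (-0.68), the NF-kB regulator Bcl3 (-0.65) and the interleukin 4 receptor chain Il4ra (-0.51). Their adjusted p-values from limma were 0.000920 to 0.0141.

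Upward, Birc5, the gene of survivin, an inhibitor of apoptosis that also acts in mitosis, averaged 8.57 ± 0.07 in AC9 and 7.87 ± 0.21 in VECTOR (SD, n = 3 each), and rose 1.63-fold (limma adjusted p = 0.00381). Vegfa, the vascular endothelial growth factor gene, read 11.28, 11.42 and 11.16 in AC9 against 10.84, 10.32 and 10.61 in VECTOR, and rose 1.62-fold (adjusted p = 0.00823). Egr1, an immediate early transcription factor, read 8.71, 8.52 and 8.86 in AC9 against 7.92, 7.91 and 8.18 in VECTOR, and rose 1.61-fold (adjusted p = 0.00451). In all 3 genes the groups did not overlap. The other 4 that rose, named after their values were seen, were the metalloprotease inhibitor Timp1 (0.55), the AP-1 family factor Batf (0.52), the kinase Pim1 (0.51) and Hif1a, the oxygen-sensing transcription factor (0.44), with adjusted p-values of 0.00525 to 0.0122. Without AC9 replicate 1, Batf had an adjusted p of 0.0502. Junb, Myc, Bcl6 and Cebpb did not pass, with differences of 0.14, 0.21, 0.17 and 0.28, nor did Mcl1 (-0.19), Bcl2l1 (0.02) and Fos (-0.12).

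**Figure D4:**
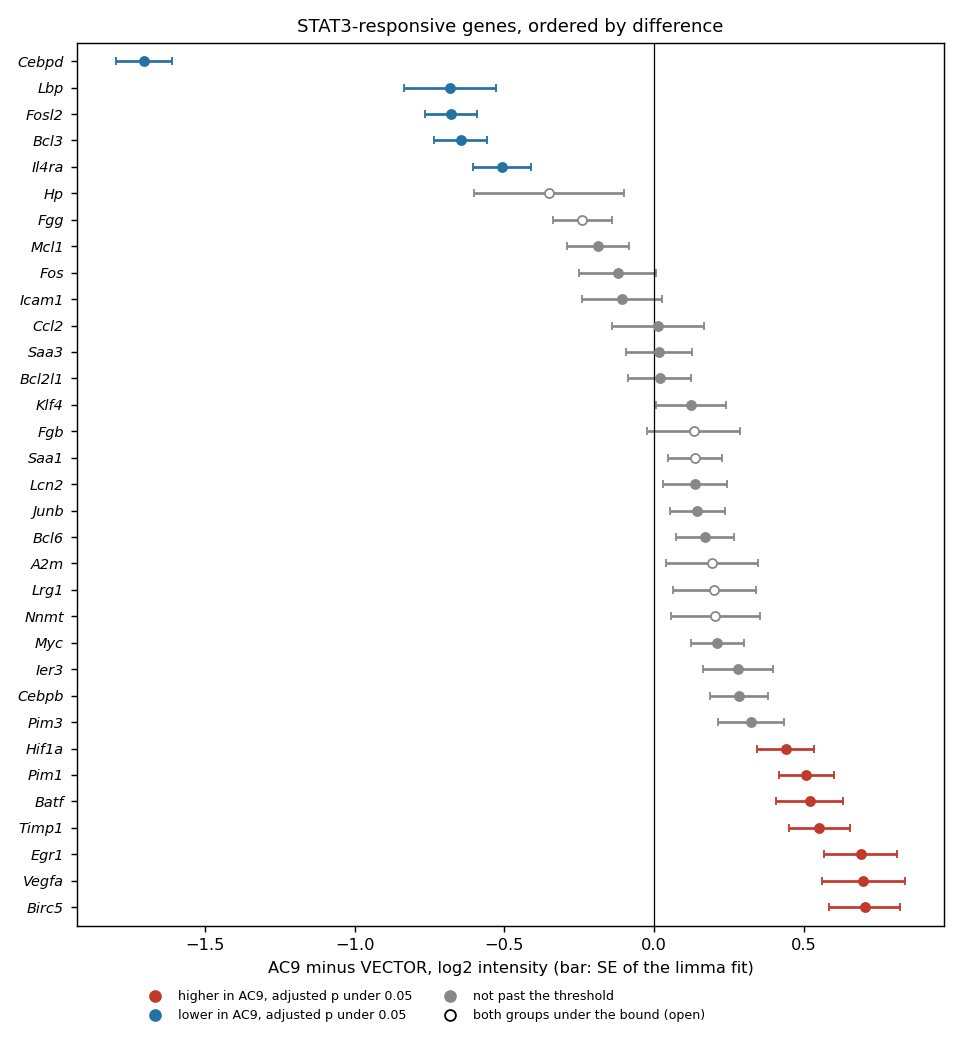
AC9 minus VECTOR differences of the 33 measured STAT3-responsive genes on the log2 scale, ordered from lowest to highest; bars are the SE of the limma fit and colours as in the plot of pathway components. Cebpd stands apart at -1.70; the 7 genes that rose lie between 0.44 and 0.70.

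The 25 STAT3-responsive genes with a promoter in the table had 30 starts in all. Of these, 4 held the STAT motif within 250 bases, beside 7.02% of all promoters. They were 2 starts of Bcl6, and 1 each of Icam1 and Fgb. None of these 3 genes passed the threshold in limma (adjusted p = 0.282 for Bcl6, 0.655 for Icam1 and 0.632 for Fgb), beside 17.6% of all genes. Fgb lay under the bound in both groups. Of the listed genes that did pass, Cebpd, Egr1 and Lbp had no promoter sequence here and were not searched.

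Of 9 measured neighbours of the members in the reference gene order, 1 was called, Stat5a beside Stat3, where 17.6% of all genes were. Rictor, next to Osmr, had a difference of 0.31 (adjusted p = 0.0540) and Tyms, next to Il6, of 0.05 (adjusted p = 0.782), while Pgs1, next to Socs3, had 0.05 (adjusted p = 0.786). Egflam beside Lifr, Il31ra beside Il6st and Tmem190 beside Il11 lay under the bound in both groups; Fam71e2, on the other side of Il11, had no array above it in AC9.

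The pattern of Lif was compared with that of 10298 other genes by Pearson correlation over the 6 arrays. These were non-members whose mean in each group lay above the mean bound of that group's arrays. Most like Lif were Rars, Nampt, Pwp1, Zfp566 and Atp10a, with r of 0.998 to 0.999. The arrays fall into 2 groups, so this measure mostly reads the difference between groups; 69 genes had an r over 0.99. All 5 named genes were higher in AC9, by log2 differences of 0.36 to 0.59, against 1.39 for Lif.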

How the data were processed

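Total RNA from 6 samples was hybridised to Affymetrix Clariom S arrays, per the labels' protocols. The deposited values are log2 intensities per probe set, for which the submitters' processing notes name RMA as the authors' method. RMA as generally defined corrects background, equalises the distributions of arrays by quantile normalization and summarises probes, which can move a shift shared by most genes. The notes name no software version or genome build. Of 22206 probe sets that are not controls, 19572 had 1 gene symbol in the platform annotation, 0 had several and 2634 none. All 19572 matched a RefSeq gene number (GRCm38.p6, used for names, gene order and promoters). The probe set with the highest mean was kept for 55 genes with several, which left 19505 genes. Columns of other samples numbered 0.

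A linear model was fitted per gene with limma 3.58.1 (R 4.3.3; lmFit, then eBayes, two-sided tests), on the values as deposited and with Benjamini-Hochberg adjustment over all genes. The fit was tested on simulated data. Dim signals were bounded by the 90th percentile of 5222 negative controls on each array; where 1 group lay under it, a fold is a lower limit, the brighter mean against the higher of bound and own value on each dim array. The number of arrays limits the precision.

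The members and lists were chosen with earlier results of these data known. Named genes were Adcy9, the members, up to 4 called genes of each list by size of change (or the 2 with the smallest p), neighbours of the members and the 5 genes most like Lif; other genes named were chosen after their values were seen. Alternatives were a trended robust prior, repeated quantile normalization, median centring, a filter at the 40th percentile of level, the mean of probe sets, array weights, the replicate block, each array left out and an adjusted p of 0.01. Listed genes without a row under their symbol, 7 of 76 in the pathway lists, were not analysed here.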

Additional observations from a re-analysis of the deposited data

Results flagged for a closer look

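A signal outside the main measurement appeared in the background probe sets, which differed between AC9 and VECTOR, by -0.498 on the log2 scale in the class that differed furthest.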

How the results depend on the processing

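The differences of the 9 members moved by less than 1 SD, pooled over the 2 groups, in all 106 values under other settings. These were up to 12 settings for each member, with 0 reversed. Most of them could give no other outcome, so nothing is read from that count. Leaving out 1 array of 3 cannot move a difference by that SD. The filter, the mean of probe sets and the replicate block leave a member's difference as it was. Genes past the threshold over the whole array numbered 1612 higher and 1812 lower; with an array left out these were 968 to 1491 higher and 1206 to 1534 lower, the fewest of both without AC9 replicate 1 (1061 higher without AC9 replicate 3), and at an adjusted p of 0.01 they were 729 and 941. The call of Ctf2, the 1 further ligand, was absent (0) with the replicate block and at 0.01, and 0 to 1 with an array left out. Among kinases, STATs and adaptors, the trended robust prior gave 2 higher and 4 lower, the filter on dim genes 4 lower, 0.01 gave 0 lower, and arrays left out gave 0 to 2 lower. Among negative regulators, 0.01 gave 1 higher, arrays left out 1 to 2 higher and 1 to 2 lower, the trended prior 2 lower and the filter 3 lower. STAT3-responsive genes were 6 to 8 higher and 5 lower with an array left out, and 11 higher under the trended prior. Over the whole array the trended prior also gave more calls, 2249 higher and 2425 lower. The filter on dim genes gave 2019 higher and 2288 lower among the genes it kept. The larger list counts under these 2 settings are therefore not read as particular to a list. Deviations from group means correlated at 0.0085, 0.081 and 0.0076 between arrays of the same number, so the numbers were not taken to pair samples. The replicate block gave 1410 higher and 1652 lower genes over the array and changed 1 call among the named genes tested, that of Ctf2 (adjusted p = 0.0547). The causes of these shifts were not tested. Where both groups lay under the bound (8198 of 19505 genes, Il6 and Il11 among them), signal over background limits what can be said of a difference.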

Other observations

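Other cytokine receptor chains of the JAK and STAT type, listed after the data were seen, moved in both directions: of 17 measured, 2 rose, 5 fell and 7 lay under the bound in both groups. The share called was 41.2%, beside 17.6% of all genes, and nothing is read from it, since the list was chosen with the values known. Ghr, the growth hormone receptor, read 8.83, 8.78 and 9.13 in AC9 cells, against 7.10, 7.36 and 7.42 in VECTOR cells, and rose 3.06-fold (limma adjusted p = 6.18e-05). Lepr, the leptin receptor, rose 1.66-fold (adjusted p = 0.00369). Il22ra1, the interleukin 22 receptor chain of epithelial cells, read 6.49, 6.69 and 6.37 in AC9, against 7.86, 7.65 and 8.10 in VECTOR, and was 2.56-fold lower (adjusted p = 0.000217). Il13ra1, Il4ra, Ifngr2 and Il10rb fell by 0.91, 0.51, 0.47 and 0.43 on the log2 scale. Without AC9 replicate 3, Il10rb had an adjusted p of 0.0592.

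In the C/EBP family, also listed after the data were seen, 2 of 5 measured genes fell, beside 9.29% of all genes, and 0 rose. Cebpa read 7.50, 7.66 and 7.45 in AC9 cells, against 9.13, 8.97 and 8.70 in VECTOR cells, and was 2.63-fold lower (limma adjusted p = 0.000129), beside the fall of Cebpd. Cebpb and Cebpg had differences of 0.28 and 0.26 and did not pass (adjusted p = 0.0758 and 0.118).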
